A study of Saccharomyces cerevisiae with 1245 samples.

Results

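Promoters of 6 ribosomal protein genes of budding yeast that are known to be bound by Abf1 in place of Rap1 are described here, those of RPL3, RPL4A, RPL4B, RPP1A, RPS22B and RPS28A. They were picked by gene name from that knowledge, not by a measured value. Each promoter was taken as the 700 bp before the coding start and the first 100 bp after it, in the R64 annotation. The 6 windows were set against those of the other 127 genes whose symbols start with RPL or RPS and a number, and against all 6002 protein-coding promoters.

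The data were lists of ChIP-exo peaks, in which an exonuclease trims immunoprecipitated DNA to the crosslink so that a bound place is read to within a few bases. The labels gave cells grown in YPD at 25 °C and crosslinked with 1.0% formaldehyde. Most targets carried a TAP tag and were pulled down through it. Some were pulled down through an HA tag, and the others with further antibodies, among them ones to a protein or mark itself. The main set held 1115 libraries of 716 targets without heat shock, and 374 of these targets had more than 1 library. Heat-shocked cells, treated for 6 min or 3 min, were profiled for a small set of targets and are described last. The 15 untagged samples were not analysed here, so a background level in cells without a tag cannot be given. Nothing in the labels says whether numbered libraries of a target came from separate cultures.

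Ribosomal protein genes are among the most heavily transcribed genes of growing yeast. At most of their promoters Rap1 binds DNA and the activators Fhl1 and Ifh1, often with the HMG-box protein Hmo1, sit beside it. Abf1 is another abundant DNA-binding protein of the same general kind, and like Rap1 and Reb1 it keeps nucleosomes away from promoters. TFIID brings the TATA-binding protein (TBP, encoded by SPT15) to promoters, TFIIB (Sua7) and TFIIH complete the start complex, and SAGA and NuA4 are coactivators that acetylate histones.

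The peak lists varied in length between 1 and 7062 peaks, with a median of 79, so a missing peak in a short list carries little weight. A target was counted at a promoter when any of its libraries had a peak in the window. Scores run to a ceiling of 1000 and are used below only to say what share of a library's own peaks scored higher. Because the window is measured from the coding start, a gene with a long leader has its start complex far upstream: RPS22B, whose leader holds an intron, had its TFIIH peaks between 662 and 621 bp upstream of the coding start.

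The coding regions, in R64 coordinates, were chromosome XV 444686 to 445849 on the plus strand for RPL3 (YOR063W), and chromosome II 300166 to 301254 on the plus strand for RPL4A (YBR031W). RPL4B (YDR012W) lay on chromosome IV at 471853 to 472941 on the plus strand, and RPP1A (YDL081C) on the same chromosome at 309802 to 310122 on the minus strand. RPS22B (YLR367W) lay on chromosome XII at 856442 to 857317 on the plus strand, and RPS28A (YOR167C) on chromosome XV at 648804 to 649007 on the minus strand. RPL3 encodes a large-subunit protein close to the peptidyl transferase centre, RPL4A and RPL4B are paralogues, RPP1A encodes a stalk protein, and RPS22B and RPS28A encode small-subunit proteins. The RPS28A window also held the start of the divergent gene GLN4, at 296 bp, and the RPL4A and RPP1A windows held the ends of RKM3 and THI3 at 216 and 520 bp. The RPL3 window overlapped that of YOR062C, and the windows of RPL4B and RPS22B overlapped no other coding gene or promoter window.

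Abf1 itself was found in the windows of 4 of the 6 promoters, RPL3, RPL4A, RPP1A and RPS28A, against 10 of the other 127 and 13% of all coding promoters. Its libraries held 499 and 708 peaks. RPL4A had the clearest peaks. In library 1 its peak was at 176 bp upstream, and 29.5% of the library's peaks scored higher. In library 2 its peaks were at 280 and 54 bp upstream, and the first had the ceiling score. That first peak lay within RKM3, which ends 216 bp upstream. RPL3 had weak peaks at 226 bp upstream in library 1 and at 320 bp upstream in library 2, with 85.6% and 72.6% of the library's peaks above them. RPP1A had a peak at 226 bp upstream and RPS28A one at 50 bp downstream of the coding start, both in library 2 and both low, with 90.4% and 91.4% of peaks above them. Without library 2 the count was 2 of 6.

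The 2 Abf1 libraries disagreed on position at RPL3 and RPL4A. Their nearest peaks were 94 bp apart at RPL3 and 104 bp apart at RPL4A. Across the 595 promoters with an Abf1 peak in both libraries the median gap was 0 bp, and 4.54% of them had a gap of 90 bp or more. The best Abf1 peak of a promoter had a median of 46.3% of peaks above it in library 1 and 42.9% in library 2, so the peaks at RPL3, RPP1A and RPS28A were lower than most.

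At RPS22B both libraries placed Abf1 at 731 bp upstream, 1 of them with the ceiling score, and this peak fell just beyond the window. Tbf1, a related general regulatory factor, was at 754 and 756 bp upstream there, with the ceiling score in both of its libraries. With a window of 1000 bp upstream, 5 of the 6 promoters had an Abf1 peak. RPL4B had none even within 1500 bp upstream, so the lists held no Abf1 peak at that promoter, although it is counted among the Abf1-type genes.

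Rap1 was at 0 of the 6 promoters, against 121 of the other 127 and 18.3% of all coding promoters. Its 3 libraries found 113, 115 and 121 of the other promoters. Of the 6 others without a Rap1 peak in the window, RPL24A, RPL24B, RPS25B, RPS26A and RPS29A had Rap1 peaks between 806 and 713 bp upstream, and only RPS28B had none within 1000 bp. RPL3 had a single Rap1 peak, at 782 bp upstream in library 3, and this was the only one of the 6 to gain Rap1 in the wider window.

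RPS28B, the paralogue of RPS28A, thus had no Rap1 peak but a strong Abf1 peak at 175 bp upstream, with the ceiling score in both libraries. It is singled out here after its values were seen. It was the only one of the 10 other promoters with Abf1 that lacked Rap1, since 9 had peaks of both.

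**Figure D1:**
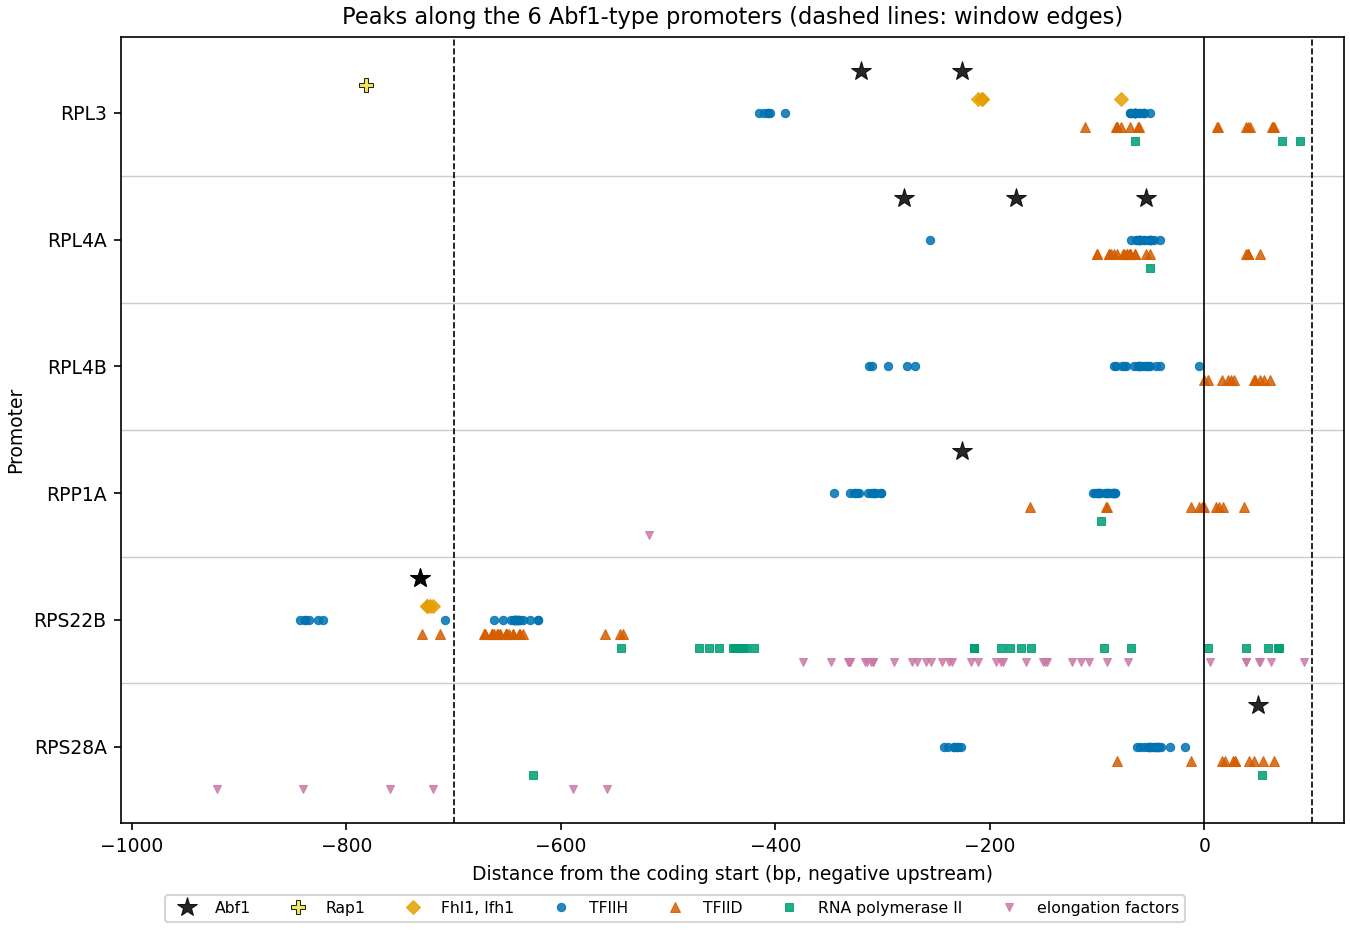
Peaks of named targets and groups along the 6 Abf1-type promoters, against the distance from the coding start in bp, up to 1000 bp upstream; each symbol is a peak of 1 library. TFIIH peaks gather about 50 to 100 bp upstream at 5 promoters, while at RPS22B they lie between 662 and 621 bp upstream, beside Abf1 at 731 bp upstream.

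The factors that work with Rap1 were absent or weak at the 6 promoters. Ifh1 and Fhl1 were each at 1 of 6, RPL3, against 121 of the other 127 for each, and 7.43% and 6.75% of all coding promoters. At RPL3, Ifh1 was 207 bp upstream in both of its libraries, with 77.1% and 87.9% of peaks above it, and Fhl1 was 211 bp upstream in 1 of 2 libraries, with 56.4% above it. Stb3, which binds a motif of ribosome biogenesis genes, was at 0 of 6 against 114 of 127 and 3.4% of all. The activator Sfp1 was at 0 of 6 against 99 of 127 and 3.72% of all, and Hmo1 at 0 of 6 against 82 of 127 and 3.38% of all. Tod6 and Dot6, repressors of ribosome biogenesis genes, were at 0 of 6 and 0 of 127, with 0.1% and 0.117% of all promoters, but their lists held only 18 and 20 peaks. Over the 7 regulators, the 6 promoters had 2 of 42 possible pairs of target and promoter, 4.76%, against 60.4% at the other ribosomal protein promoters and 3.56% over all coding promoters.

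RPS22B is an exception that the window edge hides. Fhl1 lay at 725 bp upstream of its coding start in both libraries, Ifh1 at 719 and 722 bp, and Sfp1 at 723 bp in 1 library, all close to the Abf1 peak. These peaks spanned low to high scores: 56.1% of peaks were above Fhl1 in library 1 and none in library 2, and 15.7% were above Ifh1 in library 1 against 66.2% in library 2. With the wider window Fhl1 and Ifh1 were thus at 2 of 6 promoters. RPL4A, RPL4B, RPP1A and RPS28A had neither.

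The other general regulatory factors were not found in the 6 windows. Reb1 was at 0 of 6 against 44 of 127 and 19.1% of all coding promoters. Tbf1 was at 0 of 6 against 3 of 127 and 3.8% of all, before the wider window brought in RPS22B. Cbf1 was at 0 of 6 against 7 of 127 and 7.91% of all, and Mcm1 at 0 of 6 against 3 of 127 and 7.83% of all. With 6 promoters, a count of 0 or 1 lies near the share of all coding promoters for each of these factors. It departs from the other ribosomal protein promoters for Rap1, Fhl1, Ifh1, Stb3, Sfp1 and Hmo1.

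Fewer targets were found at the 6 promoters than at most other ribosomal protein promoters. RPL3 had 46 targets, RPL4A 46, RPL4B 34, RPP1A 35, RPS22B 83 and RPS28A 42, against a median of 63 at the other 127 (quartiles 55.5 and 71.5, range 37 to 135). RPL4B and RPP1A had fewer than every one of the 127, RPS28A had more than 5 of them, RPL3 and RPL4A more than 6, and RPS22B more than 105. The median of all coding promoters was 14. Of the 716 targets, 101 were at some of the 6 promoters, 25 at all 6, and 46 at just 1. RPS22B alone accounted for 35 of these.

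**Figure D2:**
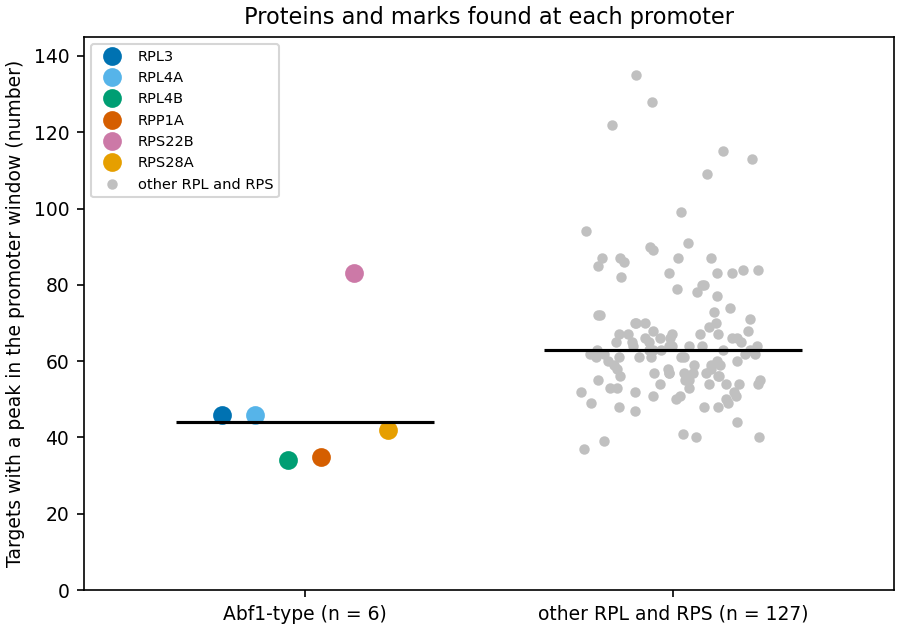
Number of targets with a peak in the window of each Abf1-type promoter (left) and each of the other RPL and RPS promoters (right), where each point is a promoter and the lines are medians. The medians were 44 and 63, and RPS22B, with 83, sits above the others of its group.

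The general transcription machinery was found at all 6 promoters. TFIIB (Sua7) was at 6 of 6 and 127 of 127, and at 87.1% of all coding promoters. The TFIIE subunit TFA1 was at 6 of 6 and 127 of 127, with 64.1% of all, and TBP (Spt15) at 6 of 6 and 126 of 127, with 30.5% of all. By library, TBP was at 6, 6 and 3 of 6 in lists of 1808, 1337 and 629 peaks, against 126, 126 and 85 of 127. Over TBP, TFIIA, TFIIB, TFIIE and TFIIF, each of the 6 promoters had 6 of the 7 targets, the same as the median of the others, against a share of 51% over all coding promoters. TFIIH gave 9 of its 10 targets at each of the 6, again the median of the others, against 42.4% over all. Within it, the core subunit Tfb4, the helicase Rad3 and the kinase Kin28 were each at 6 of 6 and 127 of 127, with 72.1%, 54.5% and 52.5% of all. The mRNA capping enzyme subunit Cet1 was also at 6 of 6 and 127 of 127, with 54.5% of all coding promoters.

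TFIIH peaks were close to the coding start and close in position to those of the other ribosomal protein genes. The median position was 62.5 bp upstream at RPL3, 55.5 at RPL4A, 60 at RPL4B, 92.0 at RPP1A and 47.5 at RPS28A, against a median of 52.5 bp at the others. At RPS22B it was 639.5 bp upstream. TBP was at similar places, between 58.0 bp upstream at RPL3 and 113 bp upstream at RPP1A, and at 643.7 bp upstream at RPS22B, against 64 bp at the others.

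A further group of TFIIH peaks lay upstream of the main one at several promoters. RPP1A had 14 such peaks between 345 and 302 bp upstream beside 18 near the gene, and 8 of the TFIIH targets had peaks at least 150 bp apart in a library. RPL3 had 6 such peaks between 415 and 391 bp upstream, RPL4B 5 between 313 and 270 bp, and RPS28A 7 between 243 and 227 bp, with 5 targets at each. The RPS28A group lay between RPS28A and GLN4, and the RPL4B window holds no other coding gene. RPL4A had 1 such peak. RPS22B could have none, since its main peaks between 662 and 621 bp upstream leave no room in the window of 700 bp. Among the others, 39 of 127, and 13 of the 50 whose window overlaps no other promoter's, had at least 4 targets with such spaced peaks.

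TFIID was present but thinner than at the other ribosomal protein promoters. Of its 14 subunits, RPL3 had 12, RPL4A 13, RPL4B 9, RPP1A 10, RPS22B 14 and RPS28A 10, against a median of 14 at the others. This made 68 of 84 possible pairs, 81.0%, against 96.9% at the others and 8.61% over all coding promoters. The count takes in subunits that TFIID shares with SAGA, such as Taf12, and these were not set apart. Taf2, Taf4 and Taf12 were each at 6 of 6 and 126 of 127, with 17.6%, 13.3% and 5.83% of all. Taf1, the largest subunit, was at 3 of 6, RPL4A, RPL4B and RPS22B, against 96.9% of the others and 3.9% of all. The pairs fell to 38 without the libraries numbered 1, while the others' median was then 11 subunits.

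Library by library the gap was plainer, since any library with a peak counts a target as present. In the Taf1 libraries of 311, 55 and 37 peaks, 3, 0 and 0 of the 6 promoters had a peak, against 96.9%, 26.0% and 21.3% of the others. In the Taf12 libraries of 333 and 337 peaks, 6 and 2 of 6 had one, against 126 and 117 of 127. In the Taf4 libraries of 17, 734 and 729 peaks, 0, 6 and 3 of 6 had one, against 6, 126 and 125. Of 34 TFIID libraries with a peak at any other ribosomal protein promoter, 26 found a smaller share of the 6 than of the 127, and 8 a larger one. All 8 had 6 of 6 against 126 of 127. A library with 0 of 6 counts as smaller however few of the 127 it found. In the 27 libraries that found at least 64 of the 127, the median was 3 of 6, or 50.0%, against 96.9% of the others. Keeping libraries by what they found at the 127 sets a high share there in advance, with no such condition on the 6.

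TFIID peaks that were found also ranked lower, apart from those at RPS22B. The median share of a library's peaks scoring higher was 52.9% at RPL3, 58.1% at RPL4A, 49.2% at RPL4B, 53.9% at RPP1A, 47.1% at RPS28A and 21.5% at RPS22B. At the other promoters it was 25.8% (quartiles 15.9% and 39.4%). RPS22B was inside that range and the remaining 5 were above it, that is, lower in rank. These medians rest on unlike sets of libraries, since only libraries with a peak at the promoter count. There were 15 at RPL3, 23 at RPL4A, 24 at RPS22B and 11 each at RPL4B, RPP1A and RPS28A, against a median of 26 at the other promoters.

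TFIID also sat further downstream at 4 of the 6, of which RPL3 rested on the libraries numbered 1. The median TFIID position minus the median TFIIH position was 63.1 bp at RPL3, 85 at RPL4B, 91.0 at RPP1A and 75.5 at RPS28A, while it was -13.5 at RPL4A and -12.0 at RPS22B. The others had a median of -19.0 bp (quartiles -33.2 and -7.6), and 7 of 126 had a value of 60 bp or more. RPS28B, with Abf1 and no Rap1, had 55.8 bp. Where peaks tied for the highest score were settled by the most downstream one in place of their mean, the median of the 6 was 69.3 bp, against -20.1 bp at the others, of which 2 reached 60 bp. Without the libraries numbered 1 the median of the 6 was 42.2 bp, against -20.4 bp at the others, of which 8 of 126 reached 60 bp. RPL3 then had 4.0 bp, and the 3 promoters RPL4B, RPP1A and RPS28A had 113.5, 81.0 and 80.5 bp. This measure was chosen after the positions had been seen.

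Counted as single peaks, 36 of 99 TFIID peaks at the 6 promoters lay downstream of the coding start, 36.4%, against 310 of 3913 at the others, 7.92%. By promoter this was 8 of 16 at RPL3, 5 of 25 at RPL4A, 10 of 11 at RPL4B, 4 of 11 at RPP1A, 0 of 25 at RPS22B and 9 of 11 at RPS28A. The highest share among the others was 6 of 11 at RPS28B, and their median was 4.7%. At RPL3 the TFIID peaks fell into 2 places, as with Taf2, which was 43 bp downstream in library 1, 78 bp upstream in library 2 and 64 bp downstream in library 3. RPL4A and RPL4B have nearly identical coding sequences, and how reads that match both were placed is not given in the sources used here.

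**Figure D3:**
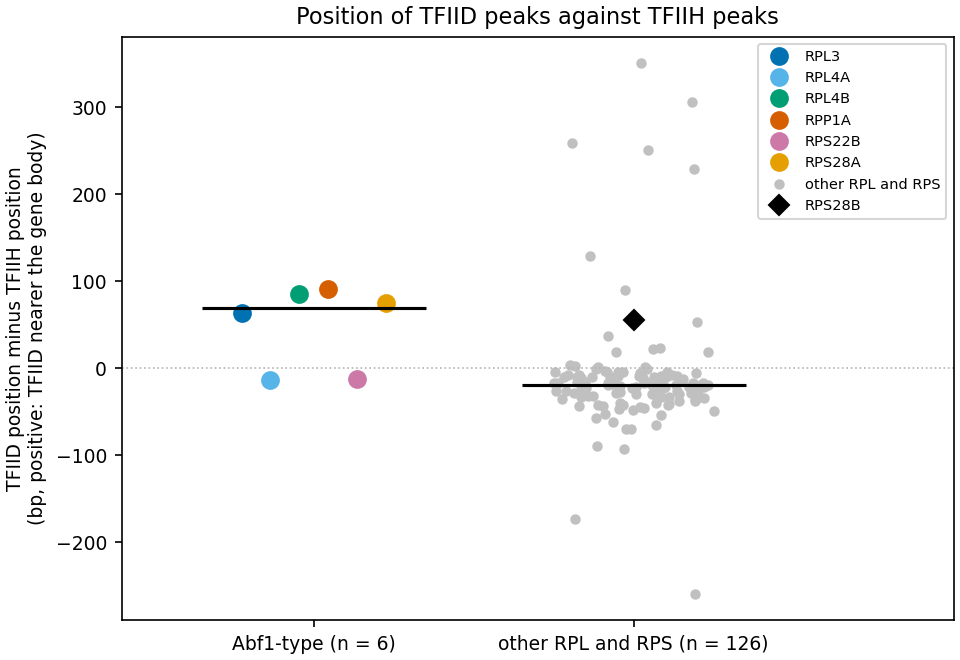
Median TFIID position minus median TFIIH position, in bp, at each Abf1-type promoter (left) and each of the 126 other RPL and RPS promoters with both (right); lines are medians and the black diamond is RPS28B. 4 Abf1-type promoters lie between 63.1 and 91.0 bp, RPL4A and RPS22B lie at -13.5 and -12.0 bp, and the others have a median of -19.0 bp.

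Measured from single Abf1 peaks, the median TFIIH position was 163.5 or 257.5 bp downstream at RPL3, by library, and 120.5 or 224.5 bp downstream at RPL4A, leaving out the second, lower peak of library 2 there. It was 134.0 bp downstream at RPP1A and 91.5 bp downstream of the peak that both libraries placed at RPS22B. With libraries so far apart, a common spacing can be neither given nor dismissed. The RPL4A peak behind the spacing of 224.5 bp also lay within RKM3. From Rap1 at the other promoters the median spacing to TFIIH was 247.7 bp (quartiles 177.5 and 319.0, n = 121). At RPS28A, whose only Abf1 peak was a weak one inside the coding region, TFIIH was 97.5 bp upstream of it.

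SAGA and NuA4 were nearly absent. SAGA had 15 targets, of which RPL3 had 2, RPS22B 3 and the remaining 4 promoters none, against a median of 6 at the others. This was 5 of 90 pairs, 5.56%, against 40.5% at the others and 5.23% over all coding promoters, so the 6 were near the general background. Ada2, a subunit of the SAGA acetylation module, was at 0 of 6 against 109 of 127 and 11.6% of all. Its 2 TAP-tag lists found 66 and 108 of the 127, and its list with the antibody label Weil Lab, of 688 peaks, found 3. The SAGA lists with that label found between 0 and 11 of the 127, and the TAP-tag ones between 0 and 116. The contrast therefore rests on TAP-tag lists, and an effect of the tag was not tested. Spt7, a core subunit, was at 1 of 6, RPS22B, against 117 of 127 and 9.93% of all. Sgf73, of the deubiquitination module, was at 1 of 6, RPL3, against 117 of 127 and 13.4% of all, and Sgf11, of the same module, was at 2 of 6, RPL3 and RPS22B, against 117 of 127 and 9.45% of all. Without the libraries numbered 1, only 1 SAGA pair was left, and the others' median was 3 targets.

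NuA4 had 9 targets and no peak in any of the 6 windows, against a median of 3 at the others. Its share of pairs was 31.6% at the others and 1.97% over all coding promoters. Of the other 127, 23 also had no NuA4 target. The catalytic subunit Esa1 was at 0 of 6 against 102 of 127 and 5.25% of all, and Yng2 at 0 of 6 against 101 of 127 and 4% of all. These were the NuA4 targets with the widest gaps. Arp4, Eaf3 and Yaf9, with lists of 1, 38 and 23 peaks, were at 0 of 127, and Eaf7 was at 6 of 127. In each of the 24 SAGA libraries and 10 NuA4 libraries with a peak at any of the 127, the share of the 6 promoters was the smaller. A library with 0 of 6 counts as smaller however few of the 127 it found, so short lists carry little weight here. Where libraries found at least 64 of the 127, the median was 0.5 of 6 promoters in 8 SAGA libraries and 0 of 6 in 3 NuA4 libraries. This choice of libraries again sets a high share at the 127 in advance, with no such condition on the 6.

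RPS22B departs from this once the window reaches 1000 bp upstream. It then had 96 targets, and the 13 it gained included the SAGA targets Ada2, Sgf73, Spt3 and Ubp8 and the NuA4 targets Esa1, Eaf6 and Yng2, between 739 and 723 bp upstream. Ada2 was at 724 and 731 bp upstream in 2 libraries, and each of the other SAGA and NuA4 targets named had its peak in 1 library. Its SAGA count was then 7 and its NuA4 count 3, against medians of 6 and 3 at the others. The other 5 promoters together had 2 SAGA targets and no NuA4 target in that wider window, and both SAGA targets were at RPL3.

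**Figure D4:**
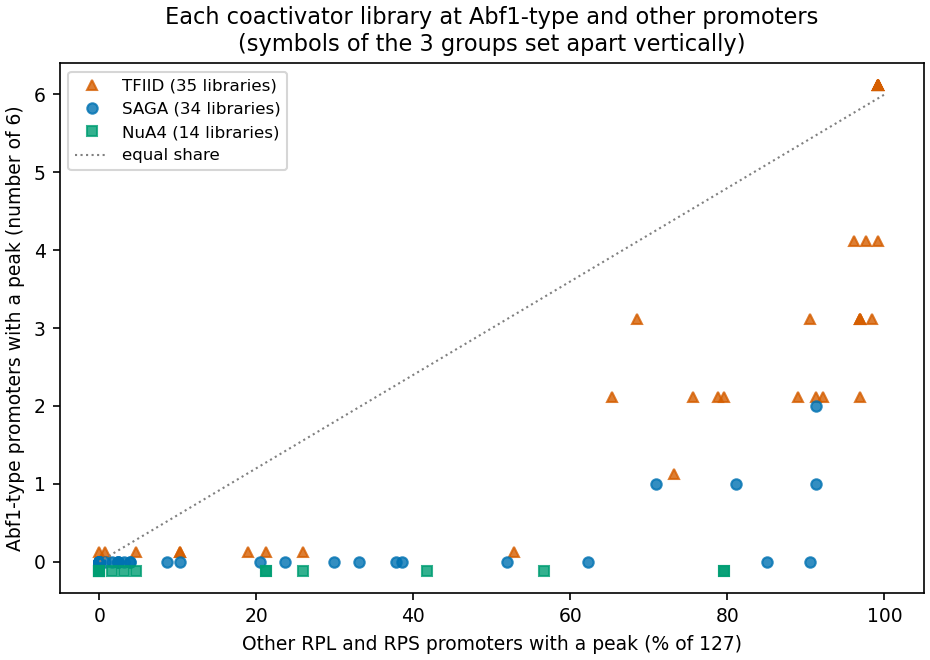
Each TFIID, SAGA and NuA4 library as a point, by the share of the 127 other RPL and RPS promoters with a peak (percent) and the number of the 6 Abf1-type promoters with a peak; the dotted line marks equal shares. SAGA and NuA4 libraries stay between 0 and 2 of 6, and TFIID libraries reach 6 of 6 only where nearly all others are found.

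Regulators of TBP and the polymerase itself varied between the 6. The NC2 subunit Bur6 was at 6 of 6 and 125 of 127, with 26.8% of all, and the coactivator Sub1 at 5 of 6 and 87 of 127, with 19.3% of all. This group has 5 target names but 4 proteins, since Ydr1 is another name of the NC2 subunit Ncb2. RPL3 had all 4 proteins, RPL4A and RPS22B 3 each, RPP1A and RPS28A 2 each and RPL4B 1, making 62.5% of pairs against 69.1% at the others and 17.2% over all coding promoters. RNA polymerase II subunits, 7 in number, were at RPS22B in full, with 3 at RPL3, 2 at RPS28A, 1 each at RPL4A and RPP1A and none at RPL4B, against a median of 3 at the others and 11.6% over all. The 2 at RPS28A had a median position of 286.0 bp upstream, close to the start of the divergent GLN4 at 296 bp. Without the libraries numbered 1 the 14 pairs of the 6 promoters fell to 6 and the others' median to 1. Rpb2, the second largest subunit, was at 4 of 6 and 90 of 127, with 15.9% of all. The polymerase tail phosphorylated on serine 7 was at 6 of 6 and 124 of 127, with 16.5% of all, and on serine 5 at 4 of 6 and 111 of 127, with 16.4% of all. All 3 phosphorylation marks together made 55.6% of pairs at the 6, against 63.8% at the others and 12.3% over all.

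RPS22B differed from the other 5 in the machinery of elongation. It had 17 of 18 elongation factors in its window, whereas RPS28A had 2, RPP1A 1 and the others none. Over the 6 this was 18.5% of pairs, against 13.5% at the other ribosomal protein promoters and 4.74% over all coding promoters. RPS22B was not alone in this among ribosomal protein genes: 59 of the other 127 had at least 1 elongation factor, 15 had 10 or more and 1 had 17, although their median was 0. Among them were the PAF subunits Paf1, Ctr9, Leo1 and Rtf1, the FACT subunits Spt16 and Pob3, and Spt5 and Spt6. Their median position was 238.0 bp upstream of the coding start, between the TFIIH peaks and the coding start, and RNA polymerase II had its median at 278.2 bp upstream. Of the 8 subunits of COMPASS, the histone H3 lysine 4 methylase, 5 were also there, at a median of 194.0 bp upstream, with 0 to 1 at the other 5 promoters and 1.66% of pairs over all. The catalytic subunit Set1 was at 2 of 6, RPS22B and RPS28A, against 13 of 127 and 2.8% of all, and Rtf1 at 2 of 6, the same 2, against 14 of 127 and 2.53% of all.

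The peaks of these factors at RPS28A lay within a neighbouring gene. There the elongation factors had a median position of 573.0 bp upstream and Set1 one of 684 bp, inside GLN4. At RPP1A the elongation factor peak was 518 bp upstream, just short of the end of THI3 at 520 bp. Proteins that act on nascent RNA were also at RPS22B: the U1 snRNP protein Mud1 was 38 bp downstream in library 1 and 85 bp downstream in library 2, and the poly(A)+ RNA-binding protein Npl3, at 2 of 6 against 17 of 127 and 4.48% of all, was 249 bp upstream. The group of cap, RNA processing and export targets had 14 of 108 pairs at the 6, 13%, against 17.2% at the others and 9.15% over all.

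Of the 8 targets of SWR1, Bdf1 and H2A.Z, RPL4A and RPS28A had 4 each, RPL4B 3, RPS22B 2, RPP1A 1 and RPL3 none. Bdf2 was at 5 of 6, all but RPL3, against 91 of 127 and 8.53% of all, and its paralogue Bdf1, a bromodomain protein that binds acetylated histone H4, at 4 of 6 against 94 of 127 and 16.4% of all. Bdf1 was 65 and 59 bp downstream of the coding start in 2 libraries at RPL4B, and 70 and 65 bp downstream at RPS28A, with 14.6% of peaks or fewer above it. The histone variant H2A.Z (Htz1) was at RPL4A, RPL4B and RPS28A, 3 of 6, against 30 of 127 and 72.3% of all coding promoters. It lay at 270 and 346 bp upstream in 2 libraries at RPL4A, and in 1 library at 389 bp upstream at RPL4B and 350 bp upstream at RPS28A. The RPL4A places were within RKM3, which ends 216 bp upstream, and the RPS28A place was inside GLN4, which starts at 296 bp. Over the whole group the 6 promoters had 29.2% of pairs, against 21.5% at the others and 14.4% over all.

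Histone marks were mapped by MNase-ChIP-seq, in which chromatin is cut to nucleosomes before the pull-down. Trimethylation of histone H3 lysine 4 had peaks in both libraries at RPL4A, RPL4B and RPS28A, 3 of 6, against 43 of 127 in library 1 and 28 of 127 in library 2, and 37.7% and 30.6% of all coding promoters. At RPL4A and RPL4B they were 85 to 94 bp downstream of the coding start, whereas at RPS28A they were 558 and 554 bp upstream, inside GLN4. Acetylation of H3 lysine 9 was at RPL4B in both libraries, 1 of 6, against 3 and 4 of 127, and 1.22% and 0.6% of all. These marks had short lists of 129 and 80 peaks for lysine 9 acetylation.

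Mediator, RSC, SWI/SNF and the deacetylases were at or near 0 at the 6 promoters. Mediator had 24 targets, of which Med20 and Srb2 are names of 1 protein, and no peak, against 1.34% of pairs at the others and 2.53% over all. SWI/SNF, with Arp7 counted under RSC alone, had none, against 8.40% at the others and 4.43% over all. Its subunit Swi3, the highest of these at the others, was at 37 of 127. RSC had 1, Arp7 at RPP1A, making 1.19% of pairs against 2.87% and 1.85%, and the deacetylases had 2, both at RPS22B, making 1.85% against 2.71% and 2.01%. Among targets of small count, Vps71 of SWR1 was at RPL4A and RPS28A, against 2 of 127 and 8.28% of all, and the DNA-binding factor Sko1 was at RPL3 and RPS28A, against 2 of 127 and 3.45%. The helicase Rvb1 was at RPL4B and RPS28A, against 6 of 127 and 9.66%. Chd1, a remodeller, was at RPS22B and the INO80 subunit Ies6 at RPL4A, against none of 127 each, and 0.633% and 0.6% of all. Such counts of 1 or 2 promoters are too few to set against a share and are given as values only.

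**Figure D5:**
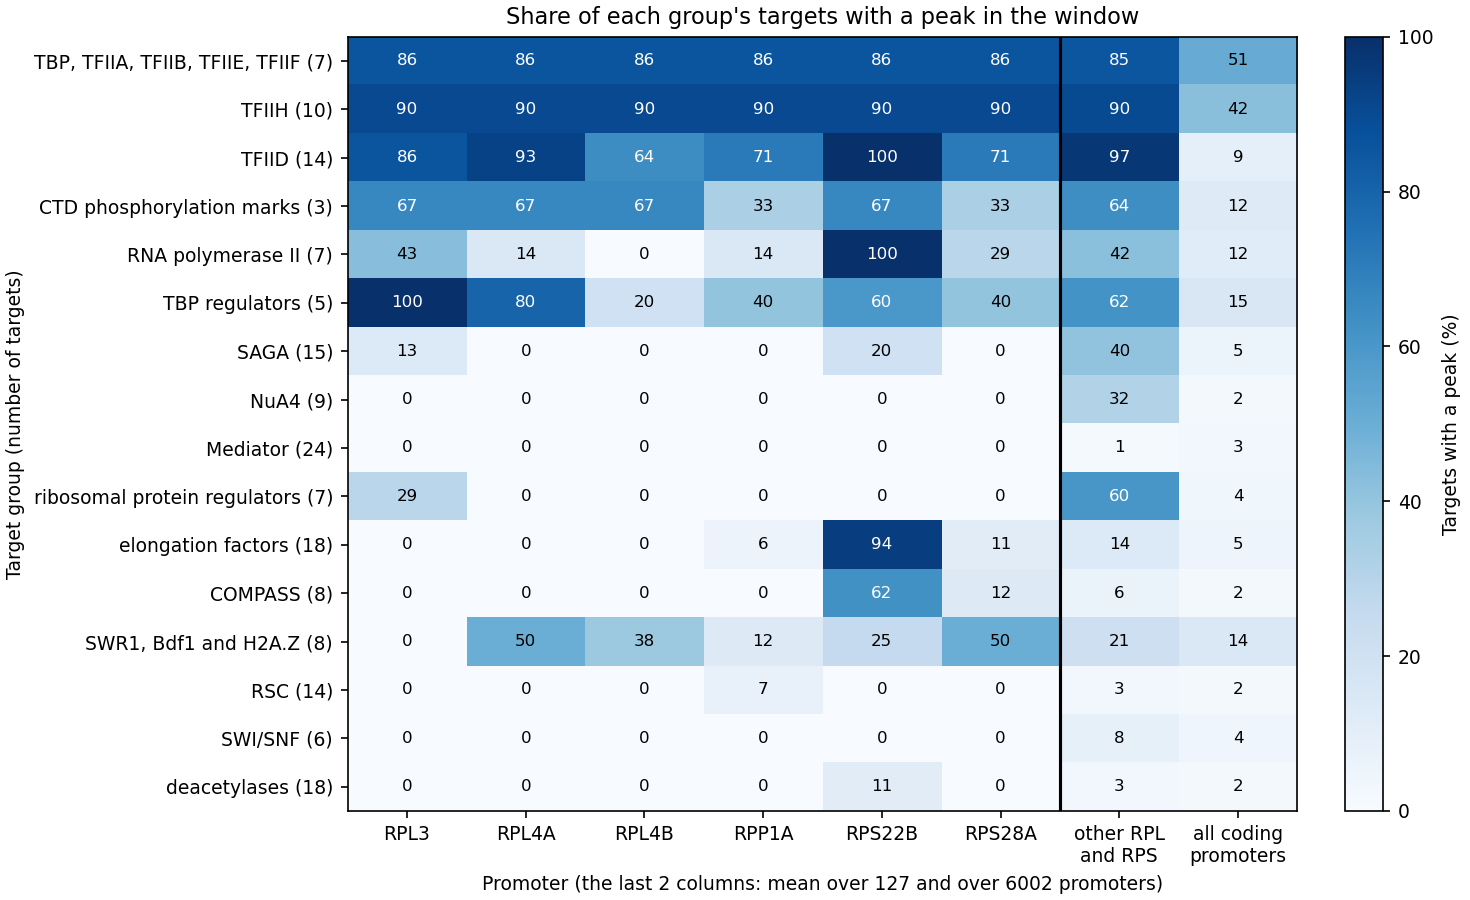
Share of each group's targets, counted as labelled, with a peak in the window, in percent, for each Abf1-type promoter and, right of the line, the mean of the 127 other RPL and RPS promoters and of all 6002 coding promoters. TBP with TFIIA, TFIIB, TFIIE and TFIIF, and TFIIH, are nearly alike in the first 7 columns, SAGA is at 0 in 4 of the 6 promoters and NuA4 in all 6, and of the 6 only RPS22B has nearly all elongation factors, 17 of 18.

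RPP1A, RPS22B and RPS28A each have a paralogue among the ribosomal protein genes outside the group, and these pairs place the difference within the same libraries. RPP1A had 35 targets and its paralogue RPP1B 49, with 30 shared, which is 85.7% of the targets of RPP1A and 61.2% of those of RPP1B. Within the window, Abf1 was only at RPP1A, while Rap1, Fhl1, Ifh1, Sfp1, Stb3, 4 SAGA targets and Taf1 were only at RPP1B. Beyond it, an Abf1 peak lay 916 bp upstream of RPP1B in both libraries, with 45.9% and 48.6% of peaks above it, higher in rank than the peak of RPP1A. The gene STF1 comes to 475 bp upstream of RPP1B, nearer than that peak, and its promoter window overlaps that of RPP1B. Which gene the peak belongs to was not tested. RPP1B had all 14 TFIID subunits and RPP1A 10. RPS22B had 83 targets and RPS22A 55, with 38 shared, or 45.8% and 69.1%. RPS22A had Rap1, 5 of the 7 regulators, 6 SAGA targets and 3 NuA4 targets, and its window overlaps that of RPL39. This pair depends on the window: with 1000 bp upstream RPS22B had 96 targets and RPS22A 101, with 83 shared, and RPS22B had 3 regulators, 7 SAGA and 3 NuA4 targets against 5, 6 and 3 at RPS22A. With 300 bp upstream they shared 3. RPS28A had 42 and RPS28B 39, with 32 shared, or 76.2% and 82.1%. Neither had Rap1 or any of the 7 regulators, TFIID subunits were 10 at RPS28A and 8 at RPS28B, and only RPS28B had a SAGA target.

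The paralogues RPL4A and RPL4B, both in the group, shared 30 targets, which is 65.2% of the 46 at RPL4A and 88.2% of the 34 at RPL4B. Abf1, Sub1, TAF7, Taf5, Taf6, Taf11 and Taf13 were at RPL4A alone, and Taf14 was at RPL4B alone. Both had 9 of the 10 TFIIH targets and no SAGA or NuA4 target.

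By the overlap of their target sets, RPS22B was less like the other 5 than these were like each other. The Jaccard index, the number of shared targets over the number in either set, was between 0.509 and 0.653 for the 10 pairs without RPS22B, with a median of 0.618. For RPS22B with the other 5 it was between 0.345 and 0.418. The 127 other promoters had a median of 0.618 among themselves, and the 5 had a median of 0.467 with them, so the 5 were about as alike as the 127 are to each other. Each of the 5 had a promoter outside the group that was closer to it than any of the 6. A set of 35 targets was found at 4 or more of the 6. Outside the group the promoters most like that set over the 716 targets were EGD1 (0.821), GIS2 (0.800), HMO1 (0.791), RPS21A (0.786) and SEC14 (0.763), against a median of 0.5 at the other ribosomal protein promoters. For single promoters, RPL3 was most like RPL40B (0.724), RPL4A most like YGL088W (0.735) and RPL4B most like SEC14 (0.784). RPP1A was most like GIS2 (0.714), RPS22B most like RPS29A (0.809) and RPS28A most like ARF1 (0.717).

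Heat shock was compared in 16 pairs of target and antibody that had libraries with and without it, and no promoter passed the test. The exact two-sided sign-flip permutation test over pairs gave 0 of 3439 coding promoters with an adjusted p under 0.05 (Benjamini-Hochberg), or 0%, and 190, or 5.52%, with an unadjusted p under 0.05. The smallest p was 0.00391 and the smallest adjusted p was 0.572. Among the 6, RPS22B had p = 0.25 in this exact permutation test, adjusted p = 0.916, with a lower share of libraries in 3 of the 16 pairs and a higher share in none. RPL3 had 2 pairs higher and 2 lower, and the remaining 4 had 1 pair lower each, all with p = 1 in the exact permutation test. With all 16 pairs the smallest p this exact test allows is 3.05e-05, but with the 4 pairs that differed at RPL3 it is 0.125 and with the 3 at RPS22B 0.25, so none of the 6 could have passed.

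The pair that differed at most of the 6 was TBP. After 3 min of heat shock its single library of 1140 peaks had a peak at RPS22B only, 1 of 6, and at 29 of the other 127. Over all 6002 coding promoters that library had peaks at 998. Without heat shock the libraries of 1808 and 1337 peaks each had peaks at all 6 and at 126 of 127, and at 1767 and 1267 of all. Peaks were fewer in both sets after heat shock, and 1 heat-shock library gives no replicate check. RNA polymerase II, through Rpb3, had peaks at RPL3 and RPS22B after 3 min, with 56 of 127, and at RPS22B alone in both libraries without heat shock, with 37 and 39 of 127. Spt16 had none of the 6 after 6 min, with 1 of 127, and RPS22B in both libraries without, with 19 and 18 of 127. Sgf11 had none of the 6 in either heat-shock library, with 2 and 3 of 127, and RPL3 and RPS22B in 1 of 2 libraries without, with 116 and 38 of 127. Spt7 had RPL3 in 1 of 2 heat-shock libraries, with 10 and 19 of 127, and RPS22B in 1 of 3 without, with 115, 0 and 103 of 127. Over all coding promoters, Rpb3 was at 907 after heat shock against 709 and 798 without, and Spt16 at 297 against 391 and 152. Sgf11 was at 270 and 524 of all against 544 and 181, and Spt7 at 760 and 1079 against 506, 39 and 506.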

How the data were processed

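ChIP-exo and MNase-ChIP-seq of yeast were read as deposited peak lists, 1 per library. Per the submitters' processing notes the tools used were BWA, SAMtools and Picard, without versions, and the genome build was sacCer3. Each list gives 1 bp positions with the name ChExMix and a peak score, per the file contents. The deposited score is a whole number between 66 and 1000 with no stated definition; 23.8% of peaks had the highest value, and scores therefore served for ranks within a library alone.

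Genes came from the RefSeq R64 annotation, with strand read from the systematic names of 6002 coding genes. A target counted at a promoter when any library had a peak in the window of 700 bp before and 100 bp after the coding start. A target's position was that of its highest-scoring peak per library (mean of ties), averaged over libraries, and a group's was the median over its targets.

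The members, target groups and measures were chosen with earlier results of these data known, so members were described without a test. Ncb2 and the groups of COMPASS and of polymerase tail phosphorylation were added, and TFIID was set against TFIIH, after values were seen. Heat shock was tested with an exact two-sided sign-flip permutation test over pairs of target and antibody, adjusted by Benjamini-Hochberg over all coding promoters with a difference, and the test was tried on simulated data. Python 3.11.15, pandas 2.3.3 and numpy 2.4.6 were used.

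The targets named were all general regulatory factors and ribosomal protein regulators, the 3 targets of each other group at the most members (with exceptions where all were at 0), and the 10 with the highest and the 10 with the lowest difference in share from the other RPL and RPS promoters. The 5 promoters most like the members' shared set, and the 1 most like each member, were named by Jaccard index. RPS28B, single TFIID subunits, Mud1 and single elongation factors were named after their values were seen. The library whose labels name 2 targets entered no group. Targets were counted as labelled, and 2 proteins were under a pair of names each, Ncb2 with Ydr1 and Srb2 with Med20. The annotation gives the name Ydr1 to PDR5 too, and it was read as Ncb2. Alternatives covered window length, list length, score, replicates, tag and comparison set.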

Additional observations from a re-analysis of the deposited data

How the results depend on the processing

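Heat shock was tested over pairs of target and antibody. No paired analysis was possible because of library numbers: the heat-shock libraries of a target carry other numbers than its libraries without heat shock, so library could not be matched to library. The search for sequence motifs was not run. The cause of the changes below was not tested, except where a setting leaves fewer libraries or peaks. With a peak required in every library of a target, the median number of targets was 21.5 at the 6 Abf1-type promoters and 34 at the others, in place of 44 and 63, Abf1 was at 2 of 6, TFIID had 14 pairs and SAGA 0. In that setting the others' medians also fell, to 7 TFIID, 0 SAGA and 0 NuA4 targets, in place of 14, 6 and 3, so their SAGA and NuA4 medians no longer differed from those of the 6, and RNA polymerase II had 5 pairs in place of 14. With the lower-ranked peaks of each library, those below its middle rank, left out, Abf1 was at 1 of 6, TFIID had 38 pairs and SAGA 1. With 1000 bp upstream, Rap1 was at 1 of 6, SAGA had 9 pairs and NuA4 3, and RPS22B shared 83 targets with RPS22A. With 300 bp upstream SAGA had 3 pairs, and RPS22B, with its start complex outside the window, shared 3.

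Leaving out libraries by number gave 2 to 4 promoters with Abf1, 38 to 65 TFIID pairs and 1 to 5 SAGA pairs. Rap1 and NuA4 stayed at 0 in those settings. Measured from the coding start, the median position over all 6 was -0.2 bp for TFIID and -61.2 bp for TFIIH. From Abf1 the medians were 192.0 and 153.2 bp, over only the 4 promoters with Abf1 in the window. These 4 include RPS28A, with its weak Abf1 peak inside the coding region. They also include RPL3 and RPL4A, where the libraries disagreed on position, so the medians give no common spacing. The share of TFIID peaks downstream of the coding start was between 28.3% and 41.2% over its alternatives. Heat shock gave 0 calls in all 10 alternatives, with the smallest adjusted p between 0.474 and 1. Lists of few peaks limit all counts of absence.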

Other observations

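A library has labels that name both Abf1 and Mot1 and was put in no group. It held 1239 peaks, with a peak in 3 of the 6 Abf1-type windows, 31 of the other 127 and 944 of all coding promoters. Its peaks lay at 111 bp upstream at RPL3, 36 bp upstream at RPL4A and 227 bp upstream at RPP1A, with 66.1%, 70.6% and 57.0% of its peaks scoring higher. At RPS22B it had a peak at 730 bp upstream, with 22.3% above it, against 731 bp upstream in the Abf1 libraries, and at RPL4B and RPS28A it had none within 1000 bp upstream. The match at RPS22B and that at RPP1A, where Abf1 was 226 bp upstream, were seen after the values were known and say nothing of which label is right.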
